A study of Mus musculus with 6 samples.

Results

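The nuclear genes for respiratory complexes III and IV and for the factors that assemble them were followed in mouse tibialis anterior muscle that received 1 of 2 forms of *Lrpprc*. They were chosen by symbol (names starting with *Uqc*, *Cox4* to *Cox8*, *Cox10* to *Cox19* and *Coa1* to *Coa8*, together with *Sco1*, *Sco2*, *Cyc1*, *Surf1*, *Bcs1l* and *Ttc19*, without rows named as pseudogenes), which gave 49 of the 41709 rows of the expression table. Of these, 9 encode complex III subunits, 5 complex III assembly factors, 17 complex IV subunits, 1 a supercomplex factor and 17 complex IV assembly factors. In the study, a plasmid for Flag-tagged wild-type mouse Lrpprc (LrpprcWT) was electroporated into 1 tibialis anterior muscle of male C57BL/6J mice, and the contralateral muscle received the same plasmid with proline 27 changed to alanine (LrpprcP27A), a form that resists prolyl hydroxylation. Both plasmids use a CMV promoter vector, and all muscles had hyaluronidase and electroporation and were collected 14 days later. RNA-seq of whole muscle gave 3 libraries per group, as TPM, a level per transcript length within a fixed total. The age of the sequenced mice was not stated outright, no muscle without an *Lrpprc* plasmid was analysed here, and plasmid and chromosomal *Lrpprc* transcripts could not be separated.

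Complex III passes electrons from ubiquinol to cytochrome c, and complex IV (cytochrome c oxidase) passes them from cytochrome c to oxygen, and both pump protons. Each complex joins subunits made in the mitochondrion, cytochrome b in complex III and Cox1 to Cox3 in complex IV, to subunits encoded in the nucleus and imported. Lrpprc, with its partner Slirp, binds and stabilises the mitochondrial mRNAs, and loss of its function is known above all for a deficiency of complex IV. Several complex IV subunits come as paralogs, of which 1 form is typical of heart and skeletal muscle and another is made in most tissues.

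The table held no read counts, so the depth of the libraries is unknown and no counting error can be given. TPM shares out a fixed total within each library, and several large components differed between the groups. Mitochondrially encoded rows took 35.99% to 45.2% of TPM with LrpprcWT and 44.2% to 46.1% with LrpprcP27A, and the ribosomal RNA-like row *Rn18s-rs5* stood at 8874 to 17614 TPM and 37023 to 44435 TPM. Over the 11611 genes with a mean of at least 1 TPM, the median log2 fold change (LrpprcP27A against LrpprcWT, on log2(TPM + 1)) was -0.32, and a gene at that value changed as the median gene did. Median-of-ratios scaling moved this median to -0.0047, and the directions of most genes described below depended on it. *Lrpprc* itself measured 35.1, 36.98 and 75.2 TPM with LrpprcWT and 26.9, 29.7 and 26.02 TPM with LrpprcP27A (log2 fold change -0.72 ± 0.26 SE, adjusted p = 0.065). The highest of these values, 75.2 TPM, came from LrpprcWT replicate 3. *Lrpprc* was called lower when the libraries were paired (limma, adjusted p = 0.0024), a fit in which 48.4% of all tested genes were called lower. After median-of-ratios scaling *Lrpprc* stood at -0.36 (limma, adjusted p = 0.33). By qRT-PCR, the study reports similar *Lrpprc* mRNA levels for the wild-type and mutant plasmids. Among the LrpprcWT libraries, replicate 2 stood apart, with a mitochondrial share inside the LrpprcP27A range. The skeletal muscle actin gene *Acta1* measured 41415, 37998 and 44523 TPM with LrpprcWT and 35108, 36853 and 36892 TPM with LrpprcP27A, while the cardiac marker *Myl7* was listed at 0.

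Of the 49 genes, 46 passed the filter of 1 TPM and were tested. *Cox8c* was listed at 0 in every library, *Cox7b2* did not exceed 0.0938 TPM, and *Cox6b2*, the testis form of Cox6b, measured 0.414, 0.403 and 0.886 TPM with LrpprcWT and 0.272, 0.230 and 0.275 TPM with LrpprcP27A. With LrpprcP27A, 10 of the 46 fell (limma, adjusted p under 0.05), or 21.7%, against 23.3% of all tested genes. None rose, against 1.34% of all tested genes, and at an unadjusted p under 0.05 there were 19 lower and 0 higher. At that unadjusted level 5134 of all 11611 tested genes were lower and 301 higher. The share that fell was therefore close to the background. The log2 fold changes lay below 0 for 45 of 46 genes and for 88.0% of all genes, with a median of -0.25 against -0.32, and 31 of the 46 lay above the median of all genes. Without LrpprcWT replicate 3 the median of the 46 was -0.15, and after rescaling over nuclear protein-coding genes it was -0.067. In 26 of 46 genes all 3 LrpprcP27A values lay below all 3 LrpprcWT values, against 47.6% of all tested genes. With same-numbered libraries taken as pairs, 17 of the 46 fell, against 48.4% of all genes. The added 7 were *Cyc1*, *Uqcrb*, *Cox6b1*, *Cox7b*, *Sco1*, *Sco2* and *Coa3*.

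**Figure D1:**
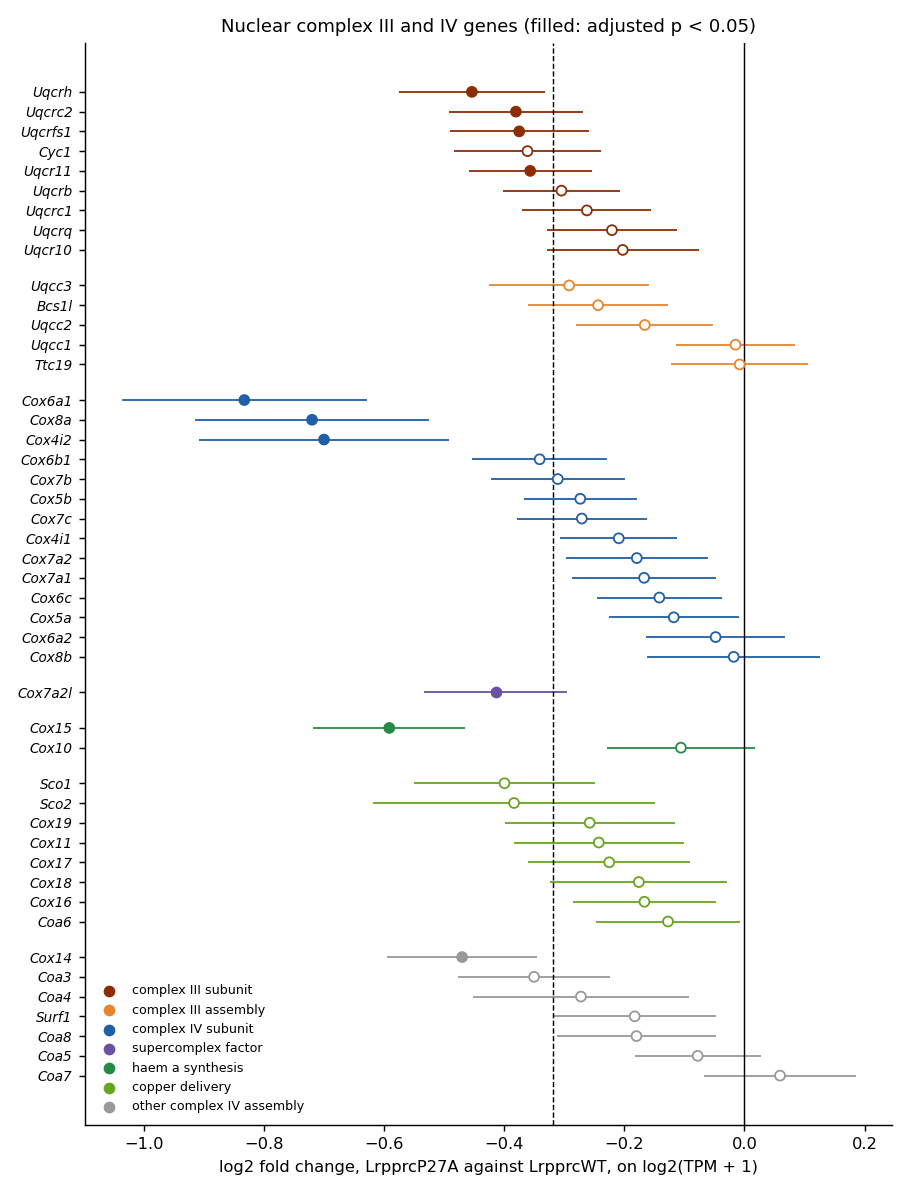
Log2 fold change of the 46 tested genes (LrpprcP27A against LrpprcWT, on log2(TPM + 1)) with its standard error, grouped by role; filled points have an adjusted p under 0.05, the solid line is at 0 and the dashed line at the median of all tested genes, -0.32. *Cox6a1*, *Cox8a* and *Cox4i2* lie farthest to the left, and *Coa7* alone lies above 0.

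The directions were not independent of how the libraries were scaled. After median-of-ratios scaling 35 of the 46 log2 fold changes lay above 0, with a median of 0.11, none of the 46 was called lower (limma, 4 at an unadjusted p under 0.05), and 2 were called higher, *Coa7* and *Ttc19*, against 5.25% of all tested genes. The number called lower also depended on single libraries. It was 22 without LrpprcWT replicate 2, with all 10 genes still called, and it was 4 without LrpprcP27A replicate 1, and 0 without LrpprcWT replicate 1, LrpprcWT replicate 3, LrpprcP27A replicate 2 or LrpprcP27A replicate 3 (limma, 19, 15, 14 and 11 at an unadjusted p under 0.05). The share of all tested genes called lower was 59.5% without LrpprcWT replicate 2, 14.5% without LrpprcP27A replicate 1, and 2.51%, 0.129%, 4.34% and 3.79% for the other 4 in the same order.

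**Figure D2:**
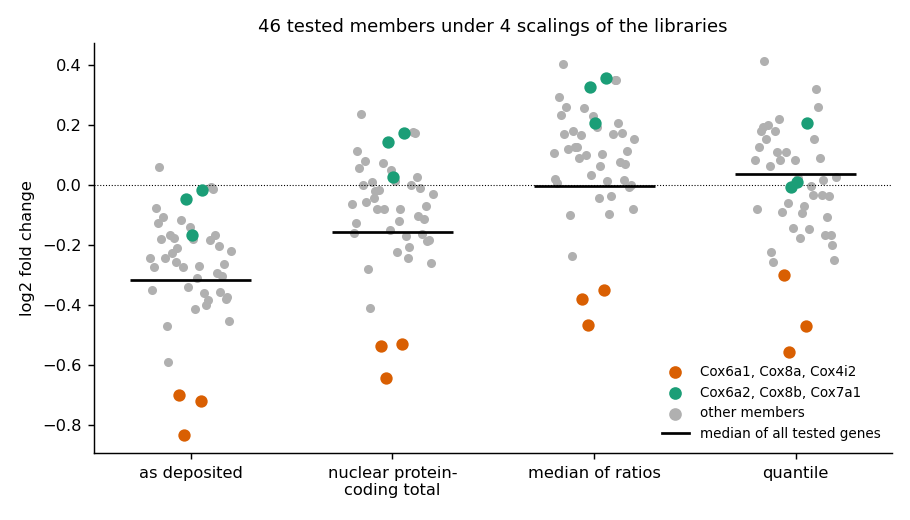
Log2 fold change of the 46 tested genes under 4 scalings of the libraries, one point per gene, with the median of all tested genes as a bar. *Cox6a1*, *Cox8a* and *Cox4i2* stay the lowest 3 with the deposited values, after rescaling over nuclear protein-coding genes and after median-of-ratios scaling, and most other points move across 0 under median-of-ratios scaling.

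Among the nuclear subunits of complex III, 4 of 9 genes fell with LrpprcP27A, or 44.4%, against 23.3% of all tested genes. The 9 had a median log2 fold change of -0.36, against -0.32 for all tested genes. Of the 9, 4 lay above the median of all genes. *Uqcrh*, the hinge protein next to cytochrome c1, measured 475, 450.5 and 588 TPM with LrpprcWT and 375, 378 and 344 TPM with LrpprcP27A (log2 fold change -0.45 ± 0.12 SE, adjusted p = 0.033). All 3 LrpprcP27A libraries lay below the lowest LrpprcWT library. *Uqcrc2*, a core protein of the complex, stood at 476, 395 and 499.7 TPM with LrpprcWT and 356, 353 and 338 TPM with LrpprcP27A (log2 fold change -0.38 ± 0.11 SE, adjusted p = 0.042). For *Uqcrfs1*, the Rieske iron-sulphur protein that carries electrons to cytochrome c1, the values were 707, 590.3 and 759 TPM with LrpprcWT and 541, 539 and 497 TPM with LrpprcP27A (log2 fold change -0.38 ± 0.12 SE, adjusted p = 0.047). The small subunit gene *Uqcr11* had 680.3, 615 and 741 TPM with LrpprcWT and 544, 512 and 529.6 TPM with LrpprcP27A (log2 fold change -0.36 ± 0.10 SE, adjusted p = 0.04). In each of these 3 genes, too, the groups did not overlap. After median-of-ratios scaling the same 4 genes stood at -0.080 (adjusted p = 0.65), -0.0065 (adjusted p = 0.97), -0.00068 (adjusted p = 1.00) and 0.018 (adjusted p = 0.91) in that order, none past the test.

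The other nuclear subunits of complex III did not pass the test. *Cyc1*, cytochrome c1, measured 462, 382 and 505 TPM with LrpprcWT and 366, 349 and 328 TPM with LrpprcP27A (log2 fold change -0.36 ± 0.12 SE, adjusted p = 0.057), and passed when the libraries were paired (adjusted p = 0.022). *Uqcrc1*, the other core protein, measured 416, 365 and 445 TPM with LrpprcWT and 348, 352 and 319 TPM with LrpprcP27A (log2 fold change -0.26 ± 0.11 SE, adjusted p = 0.091). The groups did not overlap in either gene. *Uqcrb*, *Uqcrq* and *Uqcr10* had log2 fold changes of -0.30, -0.22 and -0.20, and *Uqcr10* was the only complex III subunit in which the groups overlapped. All LrpprcP27A values lay below all LrpprcWT values in 88.9% of complex III subunits, against 47.6% of all tested genes. For complex I subunits and ATP synthase genes it was 56.8% and 82.4%.

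None of the 5 complex III assembly genes was called, while 23.3% of all tested genes were called lower and 1.34% higher. *Bcs1l*, the ATPase that places the Rieske protein in the complex, measured 14.99, 13.6 and 15.6 TPM with LrpprcWT and 11.7, 12.6 and 12.5 TPM with LrpprcP27A (log2 fold change -0.24 ± 0.12 SE, adjusted p = 0.13). The LrpprcP27A values all lay below the LrpprcWT values. *Ttc19*, which binds the complex after the Rieske protein has been added, measured 20.8, 17.8 and 20.6 TPM with LrpprcWT and 19.04, 19.9 and 19.8 TPM with LrpprcP27A (log2 fold change -0.0080 ± 0.11 SE, adjusted p = 0.96). Its groups overlapped, and after median-of-ratios scaling its log2 fold change was 0.35 (adjusted p = 0.041). *Uqcc1*, which acts with *Uqcc2* in the making of cytochrome b, measured 39.9, 41.6 and 40.6 TPM with LrpprcWT and 39.1, 40.6 and 40.98 TPM with LrpprcP27A (log2 fold change -0.015 ± 0.098 SE, adjusted p = 0.90). *Uqcc2* and *Uqcc3* had log2 fold changes of -0.17 and -0.29.

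Among the complex IV subunits, 3 of 14 tested genes fell, or 21.4%, against 23.3% of all tested genes. The median log2 fold change of the 14 was -0.24, against -0.32 for all tested genes. All 3 that fell, *Cox6a1*, *Cox8a* and *Cox4i2*, are paralogs not typical of the muscle fibre. The promoters of 3 paralogs are shown because these genes carry the contrast between the forms: *Cox6a1* and *Cox8a*, made in most tissues, and *Cox8b*, the heart and muscle form. Each is the 250 bases before the start of the gene, 5′ to 3′ on the strand of the gene, from RefSeq on GRCm38.p6, an earlier build than the GRCm39 of the expression values. Capitals mark matches, on either strand, to the letters GCGCATGC (NRF1), CCGGAAG (GABPA), GGGCGG (Sp1) and CAGCTG (E-box). *Cox6a1* lies at chr5:115348959-115349208, minus strand, *Cox8a* at chr19:7217617-7217866, minus strand and *Cox8b* at chr7:140900447-140900696, minus strand.
Cox6a1: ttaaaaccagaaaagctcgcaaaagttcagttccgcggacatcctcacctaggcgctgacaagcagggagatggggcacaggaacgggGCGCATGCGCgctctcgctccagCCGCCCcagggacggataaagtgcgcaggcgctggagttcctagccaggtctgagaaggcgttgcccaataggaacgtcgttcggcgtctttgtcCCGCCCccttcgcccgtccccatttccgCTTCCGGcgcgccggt
Cox8a: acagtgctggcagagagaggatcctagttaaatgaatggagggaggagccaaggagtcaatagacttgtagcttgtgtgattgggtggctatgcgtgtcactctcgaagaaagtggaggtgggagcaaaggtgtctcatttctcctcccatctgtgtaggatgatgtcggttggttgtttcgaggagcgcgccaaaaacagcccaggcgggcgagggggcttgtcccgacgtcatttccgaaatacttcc
Cox8b: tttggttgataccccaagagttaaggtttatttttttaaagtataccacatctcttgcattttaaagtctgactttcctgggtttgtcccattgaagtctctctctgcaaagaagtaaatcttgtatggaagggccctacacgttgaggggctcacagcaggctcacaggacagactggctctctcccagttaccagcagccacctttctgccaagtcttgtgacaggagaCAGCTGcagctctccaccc

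The *Cox6a1* stretch held matches to the NRF1, GABPA and Sp1 letters, the *Cox8b* stretch a match to the E-box letters alone, and the *Cox8a* stretch none of those marked. The 2 NRF1 matches of *Cox6a1* overlap each other. It has 26 CG pairs, *Cox8a* 11 and *Cox8b* 1, the fewest among the 37 of 49 genes found in the promoter table. The median was 14 CG pairs over these 37 and 6 over all 32851 promoters. The GABPA letters occurred in 9 of the 37 promoters (24.3%) and 6.91% of all, the Sp1 letters in 20 (54.1%) and 32.7%, the NRF1 letters in 2 (5.41%) and 2.26%, and the E-box letters in 3 (8.11%) and 13.0%. The cyclic AMP element TGACGTCA occurred in 3 (8.11%, 1.55% of all), in *Coa7*, *Ttc19* and *Uqcrfs1*, TATAAA in 2 (5.41%, 12.4% of all), the ERR letters AAGGTCA in 1 (2.70%, 4.08% of all) and the YY1 letters AAGATGGC in 0 (1.56% of all). A match is a run of letters and was not tested as a binding site.

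*Cox6a1*, the form of subunit Cox6a made in most tissues, measured 64.8, 45.4 and 80.3 TPM with LrpprcWT and 38.9, 28.9 and 35.7 TPM with LrpprcP27A (log2 fold change -0.83 ± 0.20 SE, adjusted p = 0.028). Its LrpprcP27A libraries all lay below its lowest LrpprcWT library. The muscle form *Cox6a2* measured 1301, 1658 and 1627 TPM with LrpprcWT and 1435, 1457 and 1519 TPM with LrpprcP27A (log2 fold change -0.048 ± 0.12 SE, adjusted p = 0.74), and here the LrpprcP27A values lay within the LrpprcWT range. *Cox8a* measured 102, 72.1 and 129 TPM with LrpprcWT and 65.3, 53.5 and 59.6 TPM with LrpprcP27A (log2 fold change -0.72 ± 0.20 SE, adjusted p = 0.035). The groups did not overlap, although LrpprcWT replicate 2 was again the lowest of its group. *Cox8b* measured 443, 491 and 657 TPM with LrpprcWT and 516, 508 and 525 TPM with LrpprcP27A (log2 fold change -0.018 ± 0.14 SE, adjusted p = 0.92), with the LrpprcP27A values inside the LrpprcWT range. The exons of *Cox8b* share positions with *Psmd13* on the opposite strand, and the library kit does not mark strand. *Cox4i2*, the form of Cox4 known from lung, measured 7.93, 5.54 and 9.14 TPM with LrpprcWT and 5.48, 3.82 and 3.42 TPM with LrpprcP27A (log2 fold change -0.70 ± 0.21 SE, adjusted p = 0.043). Its partner *Cox4i1* measured 688, 672 and 768 TPM with LrpprcWT and 619, 635 and 584 TPM with LrpprcP27A (log2 fold change -0.21 ± 0.098 SE, adjusted p = 0.12). *Cox7a1*, the muscle form of Cox7a, measured 773, 799 and 1012 TPM with LrpprcWT and 769.9, 769 and 745 TPM with LrpprcP27A (log2 fold change -0.17 ± 0.12 SE, adjusted p = 0.28). *Cox7a2*, the form of other tissues, measured 239, 234 and 290.5 TPM with LrpprcWT and 237, 229 and 205 TPM with LrpprcP27A (log2 fold change -0.18 ± 0.12 SE, adjusted p = 0.24). After median-of-ratios scaling, *Cox6a1*, *Cox8a* and *Cox4i2* stood at -0.47 (adjusted p = 0.07), -0.35 (adjusted p = 0.11) and -0.38 (adjusted p = 0.14). With pairing as well, *Cox6a1* was the 1 gene of the 46 called lower, against 15.8% of all tested genes. In that fit 5 of the 46 were called higher, against 13.4% of all tested genes.

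**Figure D3:**
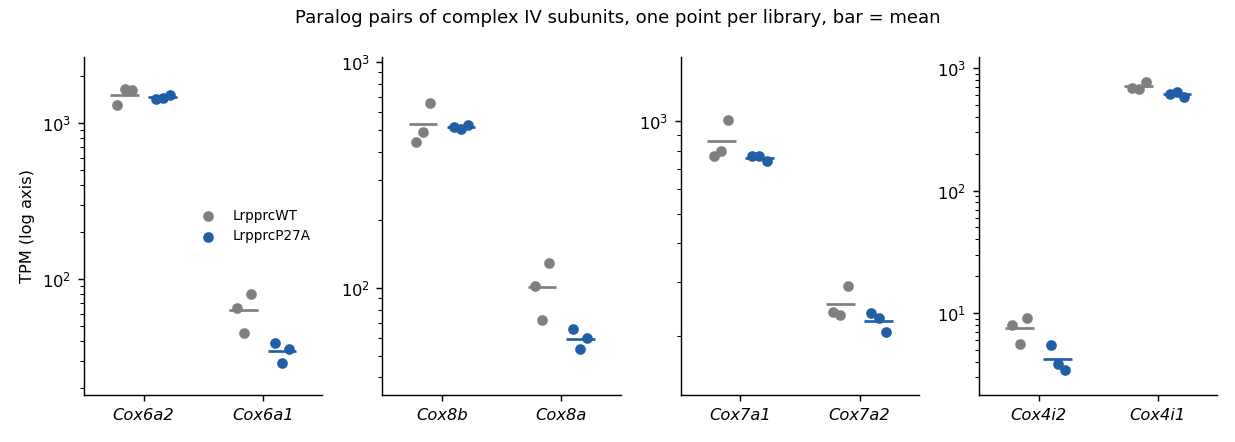
TPM of 4 pairs of complex IV paralogs in each library (log axis), with the mean of each group as a bar. The points of *Cox6a1* and *Cox8a* are lower with LrpprcP27A without overlap, while those of *Cox6a2* and *Cox8b* lie within the LrpprcWT range.

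The ratio of 2 paralogs within a library does not move with the scaling of that library, apart from the pseudocount. The log2 ratio of *Cox6a2* to *Cox6a1* was 4.31, 5.16 and 4.32 with LrpprcWT and 5.17, 5.61 and 5.37 with LrpprcP27A, a difference of 0.79 that was higher in 3 of 3 pairs (two-sided exact permutation p = 0.10, and 0.25 adjusted over 5 paralog pairs). No p under 0.10 is possible with 3 against 3. For *Cox8b* to *Cox8a* it was 2.11, 2.75 and 2.34 with LrpprcWT and 2.96, 3.22 and 3.12 with LrpprcP27A, a difference of 0.70, higher in 3 of 3 pairs (exact p = 0.10, adjusted 0.25). Neither pair could reach 0.05 in this design. *Cox6a2* made up 95.96% ± 1.19 (SD, n = 3) of Cox6a TPM with LrpprcWT and 97.7% ± 0.347 with LrpprcP27A. *Cox8b* made up 84.01% ± 2.99 and 89.7% ± 0.849 of its pair. For the third muscle form, the log2 ratio of *Cox7a1* to *Cox7a2* was 1.69, 1.77 and 1.80 with LrpprcWT and 1.69, 1.74 and 1.85 with LrpprcP27A, a difference of 0.012 (exact permutation p = 0.90), and *Cox7a1* made up 77.1% and 77.3% of its pair. The ratio of *Cox4i2* to *Cox4i1* differed by -0.49, lower in 3 of 3 pairs (exact permutation p = 0.20, adjusted 0.33). That of *Cox6b2*, which is under 1 TPM, to *Cox6b1* differed by 0.039 (exact permutation p = 0.50) and by -0.48 with a pseudocount of 0.1.

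**Figure D4:**
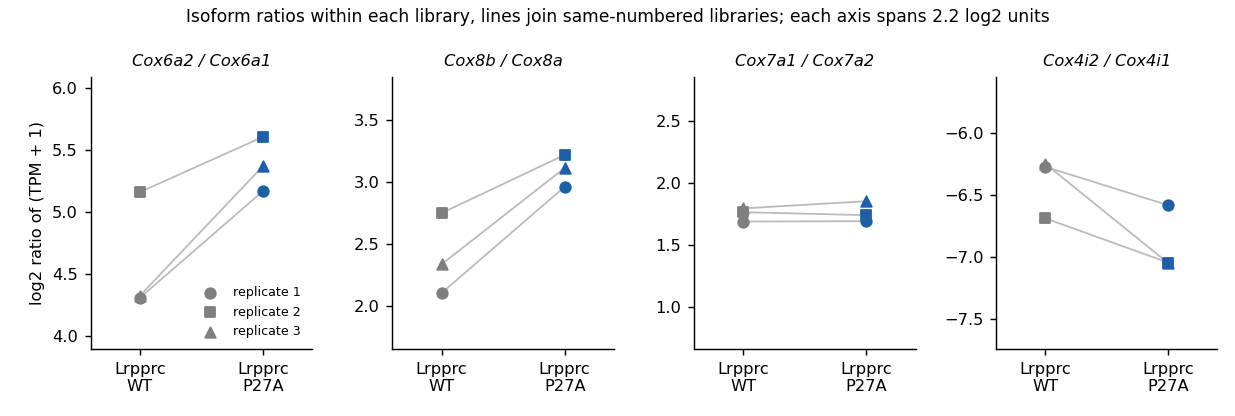
Log2 ratio of the paralogs of a pair within each library, with lines joining same-numbered libraries and axes of equal span. All 3 lines rise for *Cox6a2* to *Cox6a1* and for *Cox8b* to *Cox8a*, those of *Cox7a1* to *Cox7a2* are nearly level, and all 3 fall for *Cox4i2* to *Cox4i1*.

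Markers of several cell types were read in the same groups, where 23.3% of all tested genes fell. The summed level of 4 fibroblast markers was 468 to 735 TPM with LrpprcWT and 132 to 280.2 TPM with LrpprcP27A, and all 4 fell. Over 5 macrophage markers it was 217 to 404 TPM with LrpprcWT and 72.7 to 136 TPM with LrpprcP27A, and all 5 fell. Endothelial markers summed to 145 to 262 TPM with LrpprcWT and 106 to 146 TPM with LrpprcP27A (2 of 5 fell), and pericyte and smooth muscle markers to 331 to 471 TPM with LrpprcWT and 276 to 361 TPM with LrpprcP27A (2 of 9 fell). Slow fibre markers summed to 52.3 to 117 TPM with LrpprcWT and 18.7 to 28.5 TPM with LrpprcP27A (3 of 5 fell), and myofibre markers to 119342 to 132250.0 TPM with LrpprcWT and 108304 to 122058 TPM with LrpprcP27A (2 of 8 fell). The 2 myofibre markers that fell were *Mylpf* (log2 fold change -0.59) and *Myh2* (-1.16), and 5 of the 8 lay below 0. Adipocyte markers summed to 94.2 to 117 TPM with LrpprcWT and 64.7 to 92.05 TPM with LrpprcP27A. Of the 4 tested, *Fabp4* fell (-0.63), and *Cfd*, *Cidec* and *Adipoq* had log2 fold changes of 0.66, 0.25 and 0.061. Brown adipocyte markers summed to 2.57 to 4.37 TPM with LrpprcWT and 0.945 to 1.44 TPM with LrpprcP27A (1 of 1 tested fell). That gene was *Cidea*, which made up nearly all of the sum, and *Ucp1* did not exceed 0.0667 TPM in any library. Cardiac markers summed to 0.350 to 2.13 TPM with LrpprcWT and 0.881 to 1.37 TPM with LrpprcP27A, and none was tested. With pairing, 5 of 5 endothelial, 5 of 9 pericyte and smooth muscle, 5 of 5 slow fibre and 3 of 8 myofibre markers were lower, and 1 myofibre marker and 1 adipocyte marker were higher. That adipocyte marker was *Cfd*, which in replicate 2 measured 18.3 TPM with LrpprcWT and 12.9 TPM with LrpprcP27A, so its pairs did not all rise. Of all tested genes 48.4% were lower and 2.69% higher with pairing. After median-of-ratios scaling 2 of 4 fibroblast, 2 of 5 macrophage, 3 of 5 slow fibre and 1 of 1 brown adipocyte markers were lower, and none of the other lists. Of all tested genes 6.03% were lower after that scaling. The median of the myofibre list was then 0.19 (from -0.18), and that of the pericyte and smooth muscle list 0.038 (from -0.34). In whole muscle, fewer cells of a type and less RNA per cell cannot be told apart, and the part of these cells in the levels of *Cox6a1*, *Cox8a* and *Cox4i2* was not tested.

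*Cox5a*, a subunit on the matrix side, measured 404, 394 and 479 TPM with LrpprcWT and 403, 399 and 370.2 TPM with LrpprcP27A (log2 fold change -0.12 ± 0.11 SE, adjusted p = 0.39). *Cox5b*, also on that side, measured 467, 472 and 524 TPM with LrpprcWT and 414, 402 and 393 TPM with LrpprcP27A (log2 fold change -0.27 ± 0.094 SE, adjusted p = 0.061). The groups overlapped for *Cox5a* and not for *Cox5b*. *Cox6b1* measured 876, 849 and 1061 TPM with LrpprcWT and 754, 742 and 694 TPM with LrpprcP27A (log2 fold change -0.34 ± 0.11 SE, adjusted p = 0.054). *Cox7b*, *Cox7c* and *Cox6c* had log2 fold changes of -0.31, -0.27 and -0.14, none past the test, and *Cox6b1* and *Cox7b* passed with pairing. *Ndufa4*, described below, lies outside the 49 genes and enters neither the positions given next nor the complex IV sums and ratios. With paralogs summed, the 10 nuclear positions of complex IV among the 49 genes ranged with LrpprcWT from 175 TPM for Cox6c to 1592 TPM for Cox6a. Cox7a (1116 TPM) and Cox6b (929 TPM) came next, and with LrpprcP27A these 3 kept their order at 1505, 985 and 730.0 TPM.

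The summed TPM of the nuclear complex III subunits was 4722, 4243 and 5317 TPM with LrpprcWT and 3863, 3857 and 3618 TPM with LrpprcP27A, or 4761 ± 538 TPM with LrpprcWT and 3779 ± 139.7 TPM with LrpprcP27A (SD, n = 3). That of complex IV was 6612, 6905 and 8124 TPM with LrpprcWT and 6374, 6319.9 and 6180.2 TPM with LrpprcP27A, or 7213 ± 802 TPM with LrpprcWT and 6291 ± 99.96 TPM with LrpprcP27A. The groups did not overlap in either sum, with log2 differences of -0.33 and -0.19 (exact permutation test, p = 0.10 for each and 0.11 adjusted over 8 such measures). After median-of-ratios scaling these differences were 0.048 and 0.18, and without LrpprcWT replicate 3 that of complex IV was -0.10. Mitochondrial transcripts stood the other way: the sum of *mt-Co1*, *mt-Co2* and *mt-Co3* was 164218 ± 13072 TPM with LrpprcWT and 183347 ± 1477 TPM with LrpprcP27A, and *mt-Cytb* was 36601 ± 3445 TPM with LrpprcWT and 40968 ± 1637 TPM with LrpprcP27A, while none of the 4 genes passed the limma test. The log2 ratio of nuclear to mitochondrial subunits, free of the scaling, was -4.61, -4.69 and -4.23 with LrpprcWT and -4.86, -4.86 and -4.88 with LrpprcP27A for complex IV, a difference of -0.35 that was lower in 3 of 3 pairs (exact permutation p = 0.10, adjusted 0.11). Without LrpprcWT replicate 3 this difference was -0.21. For complex III it was -2.90, -3.26 and -2.68 with LrpprcWT and -3.46, -3.42 and -3.44 with LrpprcP27A, a difference of -0.49 (exact permutation p = 0.10, adjusted 0.11). After rescaling over nuclear protein-coding genes, the complex IV sum differed by 0.0011 and the complex III sum by -0.13. The complex IV ratio therefore does not set its nuclear subunits apart from nuclear genes as a whole.

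**Figure D5:**
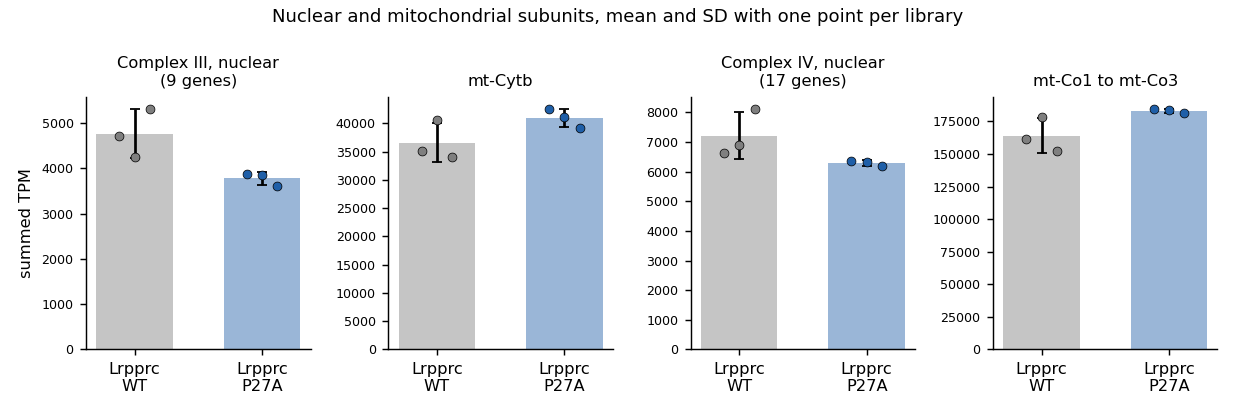
Summed TPM of the nuclear subunits of complexes III and IV and of their mitochondrially encoded subunits, as group means with SD and a point per library. Both nuclear sums are lower in all LrpprcP27A libraries, and the sum of *mt-Co1* to *mt-Co3* is higher in all of them.

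Complex IV needs haem a, which *Cox10* and *Cox15* make in consecutive steps. *Cox15*, the second enzyme, measured 23.3, 18.2 and 21.6 TPM with LrpprcWT and 13.5, 13.9 and 13.3 TPM with LrpprcP27A (log2 fold change -0.59 ± 0.13 SE, adjusted p = 0.022), and the LrpprcP27A libraries lay close together, below all LrpprcWT libraries. After median-of-ratios scaling it stood at -0.24 (adjusted p = 0.094). *Cox10* measured 38.9, 31.2 and 38.1 TPM with LrpprcWT and 35.1, 31.4 and 33.5 TPM with LrpprcP27A (log2 fold change -0.11 ± 0.12 SE, adjusted p = 0.49), with overlapping groups. The log2 ratio of *Cox15* to *Cox10*, a comparison chosen after the values were seen, was -0.71, -0.75 and -0.79 with LrpprcWT and -1.31, -1.12 and -1.27 with LrpprcP27A, lower in 3 of 3 pairs (exact permutation p = 0.10, adjusted 0.11). Exons of *Cox15* share positions with *Cutc* on the opposite strand, and reads from the shared positions cannot be told apart with this kit. The ferredoxin reductase gene *Fdxr* and the ferredoxin gene *Fdx2* were read as well. Whether *Fdx2* serves the step of *Cox15* was not tested. *Fdxr* measured 5.58, 3.91 and 6.24 TPM with LrpprcWT and 2.83, 2.22 and 1.90 TPM with LrpprcP27A (log2 fold change -0.90 ± 0.19 SE, adjusted p = 0.02) and stayed lower after median-of-ratios scaling, at -0.61 (adjusted p = 0.036). *Fdx2* measured 25.5, 23.3 and 29.7 TPM with LrpprcWT and 25.3, 25.8 and 26.4 TPM with LrpprcP27A (log2 fold change -0.011 ± 0.12 SE, adjusted p = 0.95), and after the same scaling stood higher, at 0.35 (adjusted p = 0.045).

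None of the 8 genes for copper delivery and Cox2 maturation was called, while 23.3% of all tested genes were called lower and 1.34% higher. Their median log2 fold change was -0.23, against -0.32 for all tested genes. *Sco1*, a copper chaperone of Cox2, measured 5.40, 4.06 and 5.35 TPM with LrpprcWT and 3.52, 3.16 and 3.77 TPM with LrpprcP27A (log2 fold change -0.40 ± 0.15 SE, adjusted p = 0.074), without overlap. Its paralog *Sco2* measured 10.8, 13.97 and 20.2 TPM with LrpprcWT and 8.53, 10.9 and 13.96 TPM with LrpprcP27A (log2 fold change -0.38 ± 0.24 SE, adjusted p = 0.21), and each LrpprcP27A library lay below the LrpprcWT library of the same number. Both passed when paired (limma, adjusted p = 0.019 and 0.017), a fit in which 48.4% of all tested genes were called lower. *Cox17*, which hands copper to the Sco proteins and to Cox11, measured 14.3, 14.2 and 18.3 TPM with LrpprcWT and 12.6, 13.3 and 13.4 TPM with LrpprcP27A (log2 fold change -0.23 ± 0.13 SE, adjusted p = 0.20). *Cox11*, which serves the copper site of Cox1, measured 33.6, 26.2 and 35.8 TPM with LrpprcWT and 24.8, 29.2 and 25.98 TPM with LrpprcP27A (log2 fold change -0.24 ± 0.14 SE, adjusted p = 0.20). *Cox18*, which acts in Cox2 maturation, measured 4.08, 4.41 and 5.01 TPM with LrpprcWT and 3.28, 4.01 and 4.35 TPM with LrpprcP27A (log2 fold change -0.18 ± 0.15 SE, adjusted p = 0.35). *Cox16* measured 12.05, 11.9 and 13.6 TPM with LrpprcWT and 10.5, 11.4 and 11.2 TPM with LrpprcP27A (log2 fold change -0.17 ± 0.12 SE, adjusted p = 0.28). *Cox19* measured 13.1, 11.9 and 16.2 TPM with LrpprcWT and 10.8, 10.97 and 12.04 TPM with LrpprcP27A (log2 fold change -0.26 ± 0.14 SE, adjusted p = 0.17). *Coa6* measured 25.3, 25.1 and 30.2 TPM with LrpprcWT and 24.4, 25.9 and 23.1 TPM with LrpprcP27A (log2 fold change -0.13 ± 0.12 SE, adjusted p = 0.40). The groups did not overlap in *Cox16*, and they overlapped in *Cox18*, *Cox19* and *Coa6*. Exons of *Sco2* and *Cox17* share positions with *Ncaph2* and *Popdc2*, and 23 of the 49 genes share such positions with some annotated gene.

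Among the other assembly factors, *Cox14*, which binds newly made Cox1, fell: it measured 66.5, 54.9 and 71.4 TPM with LrpprcWT and 48.6, 45.9 and 43.2 TPM with LrpprcP27A (log2 fold change -0.47 ± 0.13 SE, adjusted p = 0.033), and stood at -0.10 (adjusted p = 0.41) after median-of-ratios scaling. Its partner *Coa3* measured 71.9, 63.9 and 86.9 TPM with LrpprcWT and 57.3, 58.3 and 57.00 TPM with LrpprcP27A (log2 fold change -0.35 ± 0.13 SE, adjusted p = 0.068), also without overlap, and passed when paired (adjusted p = 0.027). *Surf1*, an assembly factor whose loss causes Leigh syndrome in humans, measured 16.3, 17.5 and 21.6 TPM with LrpprcWT and 15.1, 15.99 and 17.2 TPM with LrpprcP27A (log2 fold change -0.18 ± 0.14 SE, adjusted p = 0.29). *Coa7* had the highest log2 fold change of the 46 genes, with 10.8, 9.32 and 11.6 TPM with LrpprcWT and 11.1, 11.1 and 10.8 TPM with LrpprcP27A (log2 fold change 0.059 ± 0.13 SE, adjusted p = 0.71) and overlapping groups, and after median-of-ratios scaling it stood at 0.40 (adjusted p = 0.033). *Coa5* measured 76.4, 64.6 and 71.1 TPM with LrpprcWT and 67.3, 64.99 and 68.01 TPM with LrpprcP27A (log2 fold change -0.078 ± 0.10 SE, adjusted p = 0.55). *Coa4* and *Coa8* had log2 fold changes of -0.27 and -0.18. *Cox7a2l*, listed as the supercomplex factor, fell with LrpprcP27A: it measured 172, 139.5 and 178 TPM with LrpprcWT and 127, 115 and 122 TPM with LrpprcP27A (log2 fold change -0.41 ± 0.12 SE, adjusted p = 0.04), with no overlap, and stood at -0.042 (adjusted p = 0.72) after median-of-ratios scaling. Supercomplexes were not measured here.

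A list of 29 other genes of the pathway was also read, of which 28 were tested. 3 fell (limma, adjusted p under 0.05), or 10.7%, against 23.3% of all tested genes, and 0 rose, against 1.34%. Their median log2 fold change was -0.22, and 0.12 after median-of-ratios scaling, where 1 gene was called lower (*Fdxr*) and 1 higher (*Fdx2*). With pairing, 11 of the 28 fell, against 48.4% of all tested genes. The 3 that fell without pairing were *Fdxr*, described above, *Cycs*, cytochrome c itself, with 151, 123 and 133 TPM with LrpprcWT and 95.4, 96.2 and 104 TPM with LrpprcP27A (log2 fold change -0.46 ± 0.11 SE, adjusted p = 0.027), and *Ndufa4l2*. The latter measured 18.3, 16.1 and 21.02 TPM with LrpprcWT and 12.9, 9.68 and 11.9 TPM with LrpprcP27A (log2 fold change -0.64 ± 0.15 SE, adjusted p = 0.026). After median-of-ratios scaling *Cycs* stood at -0.084 (adjusted p = 0.57) and *Ndufa4l2* at -0.29 (adjusted p = 0.11). Its paralog *Ndufa4*, a subunit of complex IV despite its name, measured 442, 436 and 502 TPM with LrpprcWT and 438, 459 and 428 TPM with LrpprcP27A (log2 fold change -0.057 ± 0.099 SE, adjusted p = 0.65), and 0.32 (adjusted p = 0.096) after that scaling. *Slirp* measured 14.4, 15.2 and 18.01 TPM with LrpprcWT and 12.2, 13.1 and 13.8 TPM with LrpprcP27A (log2 fold change -0.26 ± 0.13 SE, adjusted p = 0.14), and 0.093 (adjusted p = 0.61) after that scaling. The transcription factor genes *Nrf1*, *Gabpa* and *Esrra* and the coactivator gene *Ppargc1a* had log2 fold changes of -0.21, -0.48, -0.085 and -0.58, none past the test. With pairing *Gabpa* and *Ppargc1a* passed (limma, adjusted p = 0.0082 and 0.016). The pairs of *Ppargc1a* did not all move the same way: in replicate 2 it measured 8.07 TPM with LrpprcWT and 9.87 TPM with LrpprcP27A. After median-of-ratios scaling *Gabpa* stood at -0.14 and *Ppargc1a* at -0.23, neither past the test.

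Complexes III and IV were compared with complex I and ATP synthase, the sets most like them. The median log2 fold change was -0.19 over 37 tested complex I subunits, -0.25 over 17 tested ATP synthase genes and -0.32 over all tested genes. In complex I 4 genes fell (10.8%) and in ATP synthase 2 (11.8%), against 23.3% of all tested genes. After median-of-ratios scaling the medians of these sets were 0.18 and 0.12. With pairing 6 genes fell in each set (16.2% and 35.3%), against 48.4% of all tested genes. The log2 ratio of summed nuclear complex III and IV subunits to complex I was 0.39, 0.36 and 0.38 with LrpprcWT and 0.35, 0.31 and 0.33 with LrpprcP27A, a difference of -0.047 that was lower in 3 of 3 pairs (exact permutation p = 0.10, adjusted 0.11). With mean log2 levels in place of sums it was -0.093 (exact permutation p = 0.20). Against ATP synthase it was 0.49, 0.60 and 0.57 with LrpprcWT and 0.55, 0.58 and 0.62 with LrpprcP27A, a difference of 0.030 (exact permutation p = 0.50) whose sign changed without LrpprcWT replicate 1. Complex IV stood against complex III at 0.49, 0.70 and 0.61 with LrpprcWT and 0.72, 0.71 and 0.77 with LrpprcP27A, higher in 3 of 3 pairs (exact permutation p = 0.10, adjusted 0.11). The last ratio and that of nuclear to mitochondrial complex III were added after the values were seen.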

How the data were processed

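RNA-seq was performed on 6 tibialis anterior muscles, 3 per group. The authors trimmed the reads, aligned them to GRCm39 (mm39 in the submitters' processing notes) with CLC Genomics Workbench, and the file they deposited holds TPM per gene. Strand setting and treatment of multiply mapped reads are not given in the sources used here.

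The deposited TPM were put on a log2(TPM + 1) scale, and the 11611 genes whose mean reached 1 TPM were tested. Groups were compared by limma 3.58.1 in R 4.3.3 with a trend and Benjamini-Hochberg adjustment over all tested genes. Tested on simulated data with these 11611 genes, it called 33 of 67 genes changed by 0.5 log2 units, 65 of 67 changed by 1 and 66 of 66 changed by 2, with 11 false calls. The rate of false calls in the measured libraries, where the median log2 fold change was -0.32, was not tested. Sums and ratios per library were compared by two-sided exact permutation tests in scipy 1.17.1. The legend of the study's figure describes contralateral muscles, and both groups share their library numbers. Same-numbered libraries deviated together from their group means (r = 0.36, 0.53 and 0.36 across genes), so pairs were fitted as an alternative. The study describes the 3 libraries of a group as biological replicates from distinct mice.

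The genes and lists were chosen with earlier results of these data known. Values are given for the core subunits, the paralog pairs, the haem, copper and Surf1 factors, *Bcs1l* and *Ttc19*, the 6 lowest and 6 highest log2 fold changes and every called gene, and ranges or fold changes for the rest. Exon positions came from the GENCODE annotation of GRCm39. Alternatives covered the pseudocount, the filter, the trend, the Kruskal-Wallis test, pairing, 3 scalings and each library left out.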

Additional observations from a re-analysis of the deposited data

How the results depend on the processing

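TPM keeps no depth, so what depth limits cannot be stated. A pseudocount of 0.1 (11 genes lower) and a minimum of 5 TPM (10 lower of 43 tested) kept the 10 calls. The number of genes called lower was 6 without the trend, 17 with the replicate block and 1 with the replicate block and median-of-ratios scaling. It was 0 without the filter (limma, 21 at an unadjusted p under 0.05), 0 by the Kruskal-Wallis test (26 unadjusted), 0 after rescaling over nuclear protein-coding genes (limma, 8 unadjusted), 0 after median-of-ratios scaling (4 unadjusted), 0 after quantile normalization (10 unadjusted), and 0 to 22 when each library was left out. Without the filter many more genes enter the adjustment, and the Kruskal-Wallis test cannot pass the adjustment with 3 against 3. For the scalings the cause was not tested. The number called higher was 2 after median-of-ratios scaling, 2 after quantile normalization and 5 with the replicate block and median-of-ratios scaling. The share of all tested genes called higher was 5.25%, 4.25% and 13.4% in the same order. Called lower were 22.6% of all tested genes without the trend, 48.4% with the replicate block, 15.8% with the block and median-of-ratios scaling, 0.0575% without the filter, 0% by the Kruskal-Wallis test, 5.49% after rescaling over nuclear protein-coding genes, 6.03% after median-of-ratios scaling and 4.46% after quantile normalization. Among the 46 genes the replicate block alone added 7 calls and lost none.

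The median of the 46 genes was 0.11 after median-of-ratios scaling, with or without the replicate block, and 0.0039 after quantile normalization. The complex III sum differed by 0.048 after median-of-ratios scaling, and the complex IV sum by 0.0011 after rescaling over nuclear protein-coding genes and 0.18 after median-of-ratios scaling. Against ATP synthase the difference was -0.050 with mean log2 levels in place of sums and -0.00039 to 0.055 with each library left out. Left-out ranges were -0.034 to 0.047 for *Cox7a1* to *Cox7a2* and -0.0065 to 0.080 for *Cox6b2* to *Cox6b1*, which was -0.48 with a pseudocount of 0.1. Those of the *Cox6a2* to *Cox6a1* and *Cox8b* to *Cox8a* ratios, 0.64 to 1.07 and 0.56 to 0.88, kept their direction.

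The sign of most single genes turned with the scaling, and all but *Uqcr11* of those that turned had not been called. After median-of-ratios scaling, with or without the replicate block, 34 log2 fold changes turned positive: 0.10 for *Cox5b*, 0.29 for *Coa5*, 0.11 for *Bcs1l*, 0.17 for *Surf1*, 0.35 for *Uqcc1*, 0.13 for *Cox18*, 0.090 for *Cox19*, 0.21 for *Cox7a1*, 0.034 for *Cox6b1*, 0.0057 for *Coa4*, 0.33 for *Cox6a2*, 0.36 for *Cox8b*, 0.17 for *Cox4i1*, 0.23 for *Coa6*, 0.26 for *Cox5a*, 0.19 for *Cox7a2*, 0.11 for *Uqcrc1*, 0.018 for *Uqcr11*, 0.17 for *Uqcr10*, 0.15 for *Uqcrq*, 0.35 for *Ttc19*, 0.26 for *Cox10*, 0.12 for *Cox11*, 0.019 for *Coa3*, 0.18 for *Cox16*, 0.17 for *Coa8*, 0.070 for *Uqcrb*, 0.10 for *Cox7c*, 0.23 for *Cox6c*, 0.013 for *Cyc1*, 0.13 for *Cox17*, 0.21 for *Uqcc2*, 0.077 for *Uqcc3* and 0.064 for *Cox7b*. After quantile normalization 22 did so: 0.18 for *Coa5*, 0.084 for *Bcs1l*, 0.15 for *Surf1*, 0.26 for *Uqcc1*, 0.22 for *Cox18*, 0.084 for *Cox19*, 0.012 for *Cox7a1*, 0.13 for *Coa4*, 0.21 for *Cox8b*, 0.19 for *Coa6*, 0.11 for *Cox5a*, 0.024 for *Cox7a2*, 0.015 for *Uqcr10*, 0.027 for *Uqcrq*, 0.32 for *Ttc19*, 0.20 for *Cox10*, 0.062 for *Cox11*, 0.18 for *Cox16*, 0.15 for *Coa8*, 0.084 for *Cox6c*, 0.11 for *Cox17* and 0.090 for *Uqcc2*. After rescaling over nuclear protein-coding genes 13 did so: 0.11 for *Coa5*, 0.17 for *Uqcc1*, 0.025 for *Cox7a1*, 0.14 for *Cox6a2*, 0.17 for *Cox8b*, 0.058 for *Coa6*, 0.074 for *Cox5a*, 0.013 for *Cox7a2*, 0.18 for *Ttc19*, 0.082 for *Cox10*, 0.011 for *Cox16*, 0.050 for *Cox6c* and 0.026 for *Uqcc2*. With each library left out, signs turned in 5 genes near 0, with ranges of -0.021 to 0.12 for *Coa7*, -0.16 to 0.015 for *Cox6a2*, -0.14 to 0.15 for *Cox8b*, -0.075 to 0.028 for *Ttc19* and -0.029 to 0.0045 for *Uqcc1*.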
